A study of Homo sapiens with 8 samples.

Results

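HT29 cells, an established human colorectal adenocarcinoma line, were given YB-0158 at 0.3 µM or CWP232228 at 1.5 µM, and the mRNA of the 2 treatments was compared directly across all genes. The comparison holds the 2 libraries titled YB-0158 and the 2 titled CWP232228, 4 of the 8 libraries of the series. The other 4 are 2 libraries of ICG-001 at 10 µM and 2 of the DMSO vehicle at 0.1%. Exposure was 48 h in both YB-0158 libraries, in CWP232228 replicate 1, in ICG-001 replicate 1 and in both DMSO libraries, and 49 h in replicate 2 of CWP232228 and of ICG-001. Because the compounds were given at different doses, a difference between the compounds and a difference in dose cannot be told apart in any result here. Whether the replicates are separate cultures is not stated in the labels. The p-values therefore reflect only how far these libraries lie from each other, and that spread can be technical.

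The 3 compounds are reverse-turn peptidomimetics, small molecules that present the backbone geometry of a peptide turn. ICG-001, the oldest of them, is known as a ligand of the histone acetyltransferase CREBBP and as a blocker of the transcription that CREBBP drives together with beta-catenin. CWP232228 is known as an inhibitor of beta-catenin-dependent transcription, and YB-0158 as a compound directed at KHDRBS1 (SAM68), an RNA-binding protein that acts in signalling and in splicing. In colorectal cancer cells, which usually carry a lesion in APC or beta-catenin, Wnt signalling maintains proliferation and stem-like traits, and it is the pathway against which this class of compounds was developed.

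Each YB-0158 library held 58489118 and 39964987 estimated reads, against 31022125 and 30618896 in the CWP232228 libraries, so the YB-0158 values rest on deeper sequencing. The ICG-001 and DMSO libraries held between 29071547 and 55020460. Replicates of YB-0158 differed, over 10179 expressed genes, with an SD of 0.13 on the log2 scale, those of CWP232228 with 0.14, those of ICG-001 with 0.13 and those of DMSO with 0.31. The DMSO libraries thus stood further apart from each other than those of any compound, and DMSO levels are given below as values with no test. That difference rose or fell with a gene's GC content in every group. Spearman's correlation was 0.53 for YB-0158, 0.55 for CWP232228, 0.75 for ICG-001 and -0.58 for DMSO, over genes, which are no independent replicates. The cells carried the label's epithelial identity: KRT8 lay between 5527 and 8638 CPM (counts scaled to library size) and EPCAM between 465 and 669.8 CPM over the 8 libraries. Of the 13 epithelial markers the least abundant was CDX1, at 0.50 to 1.85 CPM. Of the markers of other cell types, COL1A2, CD3E and CLDN5 had 0 reads in every library. Others were present at low levels, with CD68 at 3.26 to 8.69, CD14 at 2.24 to 4.03 and ITGAM at 0.991 to 4.16 CPM. COL1A1 was at 1.11 to 4.2, LUM at 0.672 to 3.7, PECAM1 at 0.776 to 1.69 and TEK at 0.5 to 1.44 CPM. Of the marker lists, 6 of 8 fibroblast, 4 of 8 leukocyte and 4 of 6 endothelial markers stayed under 1 CPM. Lysozyme (LYZ), which secretory epithelium also makes, was the only leukocyte marker of high level, at 2456 to 2744 CPM. Summed fibroblast markers came to 5.45 and 6.16 CPM with YB-0158 and 5.25 and 5.94 CPM with CWP232228. Leukocyte markers summed to 2523 and 2559.8 CPM with YB-0158 and 2467 and 2655 CPM with CWP232228. Endothelial markers summed to 1.47 and 1.35 CPM with YB-0158 and 2.68 and 2.81 CPM with CWP232228.

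The transcriptomes of the 2 treatments differed in many genes by modest amounts. Of 16471 genes tested, 3382 (20.5%) differed at a Benjamini-Hochberg adjusted p under 0.05 in edgeR's quasi-likelihood test: 1647 (10.0%) were higher and 1735 (10.5%) lower with YB-0158. The median absolute log2 fold change of these genes was 0.39, and 108 of the higher and 129 of the lower ones differed by at least 1 on the log2 scale. Between the 5th and 95th percentile, the log2 fold changes of all tested genes ran from -0.69 to 0.63, with a median of -0.002. Of 13234 protein-coding genes, 1519 were higher and 1636 lower (23.8%). Of 2031 long non-coding genes, 82 were higher and 61 lower (7.04%). Of the 16471 tested genes, the libraries of the 2 groups did not overlap in 5127 with YB-0158 above and in 5168 with YB-0158 below. Each of these counts exceeds the 3382 genes called. With 2 libraries a group, a lack of overlap by itself therefore says little about a gene.

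**Figure D1:**
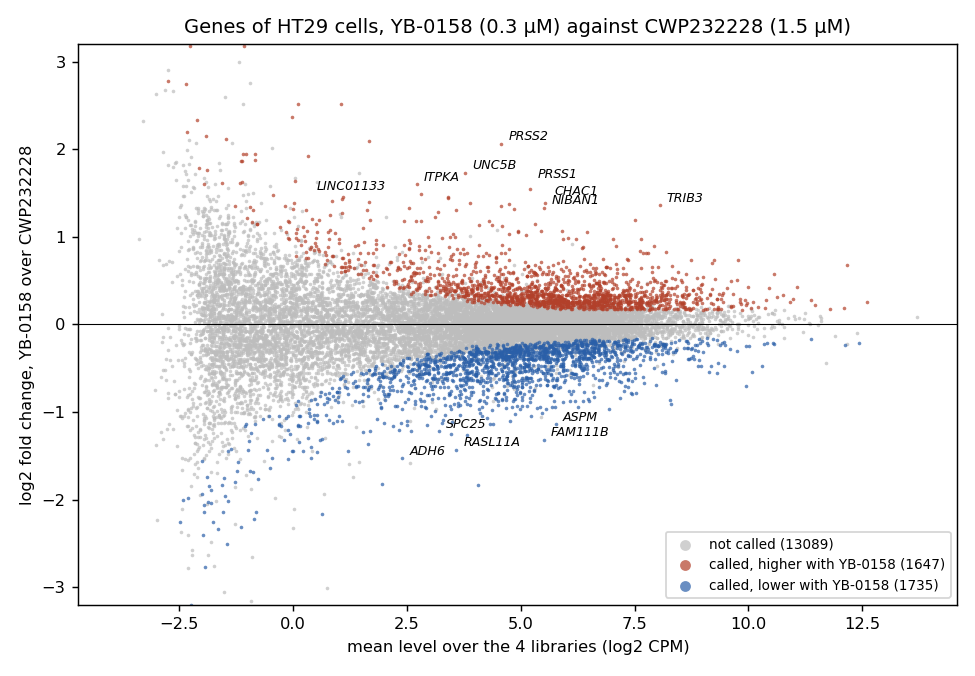
Log2 fold change (YB-0158 over CWP232228) of each tested gene against its mean level over the 4 libraries in log2 CPM. Red points are the 1647 genes called higher with YB-0158, blue points the 1735 called lower and grey points the 13089 not called, and 59 genes beyond 3.2 on either side are not drawn. Calls reach closest to 0 among abundant genes, and most labelled genes lie more than 1 log2 unit from 0.

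These counts were sensitive to which libraries entered the fit. Without YB-0158 replicate 1 the test called 1443 genes and without CWP232228 replicate 2 it called 1657, and with the DMSO libraries in the fit it called 1279. Fold changes followed GC content across genes (Spearman's correlation 0.28). The median GC content was 54.2% for genes called higher, 45% for genes called lower and 50.1% for all tested genes. With offsets for GC content and length, 2489 genes were higher and 2223 lower.

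Among genes with a mean log2 CPM of 2 or more, the largest difference was that of PRSS2 (chromosome 7, 142760398 to 142774564, plus strand, GRCh38), which encodes a trypsinogen. PRSS2 had 49.9 and 46.7 CPM with YB-0158, against 13.2 and 10.1 with CWP232228, so both YB-0158 libraries stood far above both CWP232228 libraries (log2 fold change 2.06, SE 0.11, adjusted p = 2.8e-05). PRSS1, the neighbouring trypsinogen gene (chromosome 7, 142749468 to 142753076, plus strand), had 62.9 and 63 CPM with YB-0158, against 22.5 and 20.7 with CWP232228 (log2 fold change 1.55, SE 0.07, adjusted p = 1.5e-05). The trypsinogen genes are close copies, so how reads were divided between them is uncertain. In DMSO both genes were low, at 2.75 and 3.7 CPM for PRSS2 and 3.8 and 4.84 CPM for PRSS1. UNC5B, a netrin receptor (chromosome 10, 71212570 to 71302864, plus strand), followed with 24.4 and 25.2 CPM with YB-0158, against 7.96 and 7.0 with CWP232228 (log2 fold change 1.73, SE 0.09, adjusted p = 2.8e-05), and its DMSO libraries had 0.627 and 0.924 CPM. CWP232228 thus sat between YB-0158 and DMSO for all 3 genes. The ICG-001 libraries had 51 and 47.7 CPM for PRSS2, 65.4 and 65.3 CPM for PRSS1 and 32.9 and 31.1 CPM for UNC5B, near or above YB-0158.

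Next in size came ITPKA, an inositol trisphosphate kinase, with 10.8 and 12.1 CPM with YB-0158, against 3.77 and 3.74 with CWP232228 (log2 fold change 1.60). The long non-coding RNA LINC01133 had 12.2 and 11.2 CPM with YB-0158, against 4.32 and 4.07 with CWP232228 (log2 fold change 1.49), although its level is uncertain, with a summed count 0.59 times the authors' deposited mean. IL6R, the interleukin-6 receptor, had 17.1 and 17.9 CPM with YB-0158, against 6.14 and 6.71 with CWP232228 (log2 fold change 1.45). LARP6, which binds collagen mRNAs, had 16.8 and 17.8 CPM with YB-0158, against 5.75 and 7.03 with CWP232228 (log2 fold change 1.44). The largest rises and falls were picked only from called genes whose groups did not overlap. The lack of overlap in these 4 genes, and in PRSS2, PRSS1 and UNC5B, is therefore no further result. PADI2, a peptidylarginine deiminase, had 25.2 and 22.2 CPM with YB-0158, against 8.87 and 9.47 with CWP232228 (log2 fold change 1.38). G0S2, an inhibitor of the lipase PNPLA2, had 9.0 and 9.48 CPM with YB-0158, against 3.93 and 3.42 with CWP232228 (log2 fold change 1.33). The other 6 of the 15 largest rises, CHAC1, DDIT3, TRIB3, KRT17, NIBAN1 and SLC6A9, belong to gene lists described below.

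Large falls were seen in several genes of metabolism and signalling. RASL11A, a small GTPase (chromosome 13, 27270327 to 27273690, plus strand), had 7.68 and 6.79 CPM with YB-0158, against 19.5 and 19.8 with CWP232228 (log2 fold change -1.43, SE 0.10, adjusted p = 4.4e-05). In DMSO, RASL11A was at 42 and 51.3 CPM. ADH6, an alcohol dehydrogenase, had 3.2 and 2.94 CPM with YB-0158, against 8.22 and 9.57 with CWP232228 (log2 fold change -1.53). CD302, a C-type lectin receptor, had 2.85 and 3.81 CPM with YB-0158, against 6.66 and 8.66 with CWP232228 (log2 fold change -1.21). In these genes too, the lack of overlap was a condition of being picked.

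A further 11 of the 15 largest falls were in genes that act mostly in DNA replication, repair and chromosome segregation. FAM111B, a protease gene that is high in S phase, had 24.1 and 34.3 CPM with YB-0158, against 70.9 and 73.9 with CWP232228 (log2 fold change -1.32, SE 0.20, adjusted p = 0.014), but its adjusted p was 0.073 without CWP232228 replicate 1 and 0.12 without CWP232228 replicate 2. ATAD5, which unloads PCNA from chromatin, had 8.11 and 10.3 CPM with YB-0158, against 20.3 and 23.7 with CWP232228 (log2 fold change -1.26). MTBP, a factor for the firing of replication origins, had 12.9 and 15.4 CPM with YB-0158, against 29.2 and 33.1 with CWP232228 (log2 fold change -1.14). These 3 genes were lower with YB-0158 in every pairing of libraries, which was a condition of being picked. Among genes of recombination and repair, MND1, of meiotic recombination, had 3.23 and 4.73 CPM with YB-0158, against 9.46 and 9.02 with CWP232228 (log2 fold change -1.22). NEIL3, a DNA glycosylase, had 3.58 and 3.98 CPM with YB-0158, against 8.94 and 7.88 with CWP232228 (log2 fold change -1.15). SLF1, a partner of the SMC5/6 complex, had 4.78 and 5.57 CPM with YB-0158, against 10.2 and 12.7 with CWP232228 (log2 fold change -1.15). ESCO2, which acetylates cohesin, had 2.59 and 3.58 CPM with YB-0158, against 6.11 and 7.59 with CWP232228 (log2 fold change -1.16). With offsets for the effective lengths in the deposited files its adjusted p was 0.62. Among mitotic genes, ASPM, a spindle pole protein, had 33.3 and 40.4 CPM with YB-0158, against 74.9 and 87.4 with CWP232228 (log2 fold change -1.14), while the kinase TTK and the kinetochore protein SPC25 are given with their list. GPSM2, which orients the spindle, had 7.78 and 6.62 CPM with YB-0158, against 16.5 and 18 with CWP232228 (log2 fold change -1.25), but its level is uncertain, with a summed count 0.27 times the authors' deposited mean.

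Genes of the integrated stress response were higher with YB-0158. When amino acids run short or unfolded proteins accumulate, kinases phosphorylate eIF2-alpha and general translation slows. The transcription factor ATF4, made from a selectively translated mRNA, raises genes of amino acid supply and, through DDIT3, of cell death. Of 15 tested regulators of this response, 7 were higher and 2 lower with YB-0158. The lower count was 0 without YB-0158 replicate 1, with all 8 libraries or with effective-length offsets, and 1 without either CWP232228 library. Of 30 tested target genes 24 were higher and 0 lower, where 10.0% of all tested genes were higher. Their median log2 fold changes were 0.53 for regulators and 0.65 for targets, against -0.002 over all tested genes. The number of higher targets stayed between 19 and 26 over the 14 other settings tried, with 0 lower in each.

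DDIT3 (CHOP), a transcription factor of stress-induced death, had 44.1 and 41.6 CPM with YB-0158, against 17.2 and 16.1 with CWP232228 (log2 fold change 1.37, SE 0.08, adjusted p = 2.8e-05). DMSO libraries had 9.45 and 13.9 CPM of it, below both compounds. TRIB3, a pseudokinase that restrains ATF4, had 429 and 418 CPM with YB-0158, against 181 and 151 with CWP232228 (log2 fold change 1.36, SE 0.08, adjusted p = 4.9e-05). PPP1R15A (GADD34), the phosphatase subunit that reverses the phosphorylation of eIF2-alpha, had 129 and 122 CPM with YB-0158, against 65.3 and 56.3 with CWP232228 (log2 fold change 1.05, SE 0.08, adjusted p = 6.2e-05). Here CWP232228 lay below the DMSO libraries, which had 68 and 80.2 CPM. The mRNA of ATF4 itself differed by 0.11 on the log2 scale (adjusted p = 0.18) and that of the kinase gene EIF2AK3 by 0.53 (adjusted p = 0.17), so neither passed the threshold. The 2 lower regulators were EIF2AK2, the kinase that senses double-stranded RNA, at -0.34, and the transcription factor ATF5, at -0.32 on the log2 scale.

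Among the targets, CHAC1, which degrades glutathione, had 77.8 and 73.1 CPM with YB-0158, against 32.5 and 25.4 with CWP232228 (log2 fold change 1.39, SE 0.12, adjusted p = 0.00032). In DMSO, CHAC1 was at 6.1 and 5.76 CPM. NIBAN1, a stress-induced regulator of translation, had 71.6 and 74.1 CPM with YB-0158, against 29.3 and 28.7 with CWP232228 (log2 fold change 1.33, SE 0.06, adjusted p = 1.5e-05). In DMSO, NIBAN1 was at 7.46 and 5.76 CPM. In both genes CWP232228 stood several times above the vehicle and YB-0158 above CWP232228. TXNIP, an inhibitor of thioredoxin and of glucose uptake, had a different order, with 274 and 269.9 CPM with YB-0158, against 122 and 117 with CWP232228 (log2 fold change 1.19, SE 0.07, adjusted p = 2.8e-05). Its level was 139.5 and 159 CPM with ICG-001 and 192 and 189.5 CPM with DMSO. Here YB-0158 was the highest of the 4 groups and CWP232228 the lowest. The related arrestin ARRDC4 had 29.2 and 30.2 CPM with YB-0158, against 13.1 and 13.2 with CWP232228 (log2 fold change 1.18). HERPUD1, a component of endoplasmic reticulum degradation, had 144 and 145 CPM with YB-0158, against 89.4 and 83.3 with CWP232228 (log2 fold change 0.75). ASNS, asparagine synthetase, had 368 and 417 CPM with YB-0158, against 344 and 321 with CWP232228 (log2 fold change 0.24, SE 0.07, adjusted p = 0.044). In DMSO, ASNS was at 66.5 and 69.2 CPM, so its large distance from the vehicle was nearly shared by the compounds. Its adjusted p was 0.25 without YB-0158 replicate 2, 0.068 without CWP232228 replicate 1 and 0.23 without CWP232228 replicate 2. PSAT1, a serine synthesis enzyme, had 465 and 498 CPM with YB-0158, against 322 and 327 with CWP232228 (log2 fold change 0.57, SE 0.05, adjusted p = 0.00019). In DMSO, PSAT1 was at 87.8 and 76.3 CPM. The other higher targets reached from SESN2, a leucine sensor, at 1.07 and ADM2, a peptide hormone, at 1.07, down to PYCR1 of proline synthesis at 0.27 on the log2 scale. CDKN1A, PHGDH, ALDH18A1, WIPI1, INHBE and FGF21 did not pass, with log2 fold changes between 0.04 and 0.82. These members outside the rule for named genes were chosen after their values were seen.

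Genes of amino acid supply and tRNA charging were higher in part. Of 19 amino acid transporter genes, 7 were higher and 2 lower (median 0.15), with 1 lower without YB-0158 replicate 2. Of 20 cytosolic aminoacyl-tRNA synthetase genes, 12 were higher and 0 lower (median 0.32), where 10.0% of all tested genes were higher and 10.5% lower. The glycine transporter SLC6A9 had 46.1 and 45 CPM with YB-0158, against 19.9 and 16.7 with CWP232228 (log2 fold change 1.32, SE 0.09, adjusted p = 5.1e-05). In DMSO, SLC6A9 was at 1.5 and 1.74 CPM. SLC7A5, the light chain of the large neutral amino acid transporter, had 1112 and 1134 CPM with YB-0158, against 741 and 618 with CWP232228 (log2 fold change 0.73). The cationic transporter SLC7A1 had 927 and 938 CPM with YB-0158, against 704 and 619 with CWP232228 (log2 fold change 0.50). These 3 transporters were picked as the members of smallest p, so the lack of overlap between their groups is no further result. WARS1 had 323 and 323 CPM with YB-0158, against 210.4 and 202 with CWP232228 (log2 fold change 0.65). SARS1 had 346 and 341 CPM with YB-0158, against 251 and 239 with CWP232228 (log2 fold change 0.49). AARS1 had 212 and 206 CPM with YB-0158, against 118 and 131 with CWP232228 (log2 fold change 0.75), with a summed count 0.43 times the authors' deposited mean. The synthetase genes for arginine (RARS1), glutamine (QARS1), phenylalanine (FARSA, FARSB), histidine (HARS1), valine (VARS1) and leucine (LARS1) did not pass, with log2 fold changes between -0.18 and 0.14.

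ATF4 binds, together with a C/EBP partner, a composite element that is written TGATGNAA. Promoter stretches of 3 higher genes with that element are printed here to show it, as RefSeq windows (GRCh38.p14), 5′ to 3′ on the strand of the gene, with the element on either strand in capitals. CHAC1 is at chr15:40953221-40953320 on the plus strand. ATF3, a transcription factor that was 1.13 higher on the log2 scale, is at chr1:212565171-212565270 on the plus strand. HERPUD1 is at chr16:56931921-56932020 on the plus strand.
CHAC1: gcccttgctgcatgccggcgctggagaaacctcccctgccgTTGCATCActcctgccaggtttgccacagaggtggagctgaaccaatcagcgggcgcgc
ATF3: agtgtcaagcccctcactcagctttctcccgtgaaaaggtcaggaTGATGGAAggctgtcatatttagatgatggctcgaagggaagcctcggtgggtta
HERPUD1: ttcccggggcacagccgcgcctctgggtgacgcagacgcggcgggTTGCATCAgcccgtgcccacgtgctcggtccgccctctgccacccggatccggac
The element was found within 300 bases around the start (250 before and 50 after) in 5 of 25 stress targets with a window (20%), in 2 of 13 regulators (15.4%) and in 6 of 16 synthetase genes (37.5%). Over all tested genes with a window it was found in 203 of 11355 (1.79%), over genes called higher in 48 of 1263 (3.8%) and over genes called lower in 19 of 1378 (1.38%). A match describes these letters and not a bound site.

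**Figure D2:**
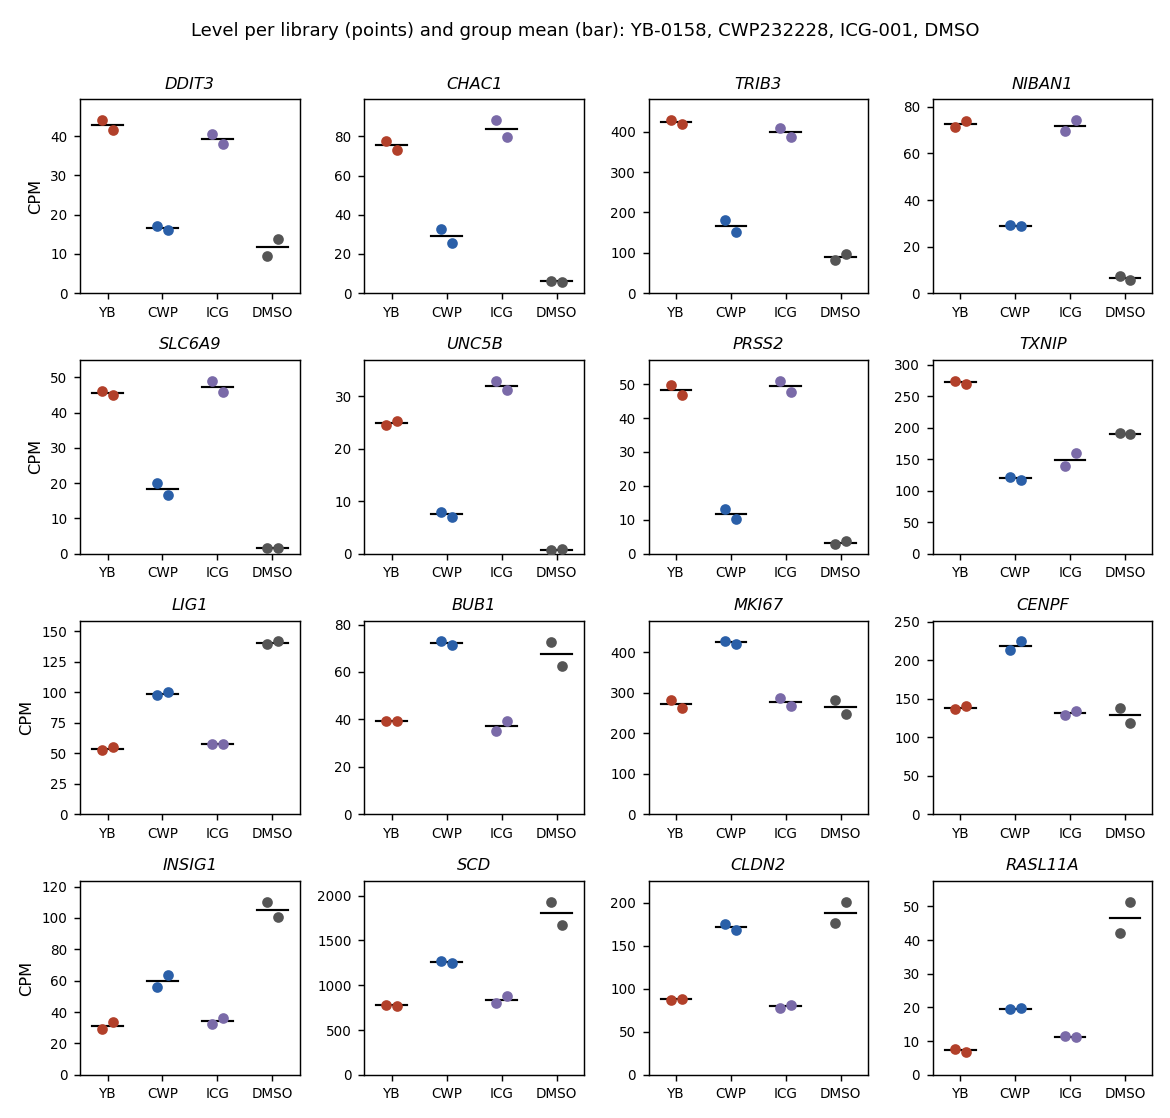
Level in CPM of 16 named genes in each library (points) with the group mean (bar), for YB-0158, CWP232228, ICG-001 and DMSO from left to right, each axis starting at 0. In the upper 8 panels both YB-0158 libraries lie above both CWP232228 libraries, and in the lower 8 panels they lie under them. DMSO lies below CWP232228 for CHAC1, NIBAN1 and SLC6A9 but above it for TXNIP.

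The cell division programme was lower with YB-0158 almost throughout. Of 45 tested genes of the G1/S transition and DNA replication, 43 were lower and 0 higher. Of 45 genes of G2, mitosis and its checkpoints, 44 were lower and 0 higher, where 10.5% of all tested genes were lower. The median log2 fold changes were -0.69 and -0.61. The lower members numbered 31 to 45 in the first list and 34 to 44 in the second over the 14 other settings, with 0 higher in each, GC and length offsets included. In RNA from whole cultures, fewer cycling cells and less of these mRNAs per cell cannot be told apart.

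Among replication genes, LIG1, the ligase that joins Okazaki fragments, had 52.7 and 55 CPM with YB-0158, against 97.8 and 100 with CWP232228 (log2 fold change -0.87, SE 0.06, adjusted p = 3.4e-05). In DMSO, LIG1 was at 139.5 and 142 CPM. TYMS, thymidylate synthase, had 64.8 and 68.2 CPM with YB-0158, against 118 and 122 with CWP232228 (log2 fold change -0.85, SE 0.06, adjusted p = 4.2e-05). In DMSO, TYMS was at 123 and 123 CPM. RRM1, the large subunit of ribonucleotide reductase, had 127 and 139 CPM with YB-0158, against 228 and 233 with CWP232228 (log2 fold change -0.79, SE 0.06, adjusted p = 6.2e-05). In DMSO, RRM1 was at 227 and 212 CPM. In all 3 genes the mean of the YB-0158 libraries was the lowest of the 4 groups, while the CWP232228 libraries lay near the vehicle for TYMS and RRM1 and below it for LIG1. The other lower members included the G1/S cyclins CCNE2 (-1.13) and CCNE1 (-0.88) and the helicase subunits MCM2 to MCM6 (-0.78 to -0.61). The clamp PCNA (-0.62) and the transcription factor E2F1 (-0.56 on the log2 scale) were lower too, all of them chosen after their values were seen. The 2 members that did not pass were UHRF1, a reader of hemimethylated DNA, at -0.32 (adjusted p = 0.099) and the helicase subunit MCM7 at -0.13 (adjusted p = 0.1).

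Among mitotic genes, the checkpoint kinase BUB1 had 39.5 and 39.4 CPM with YB-0158, against 72.9 and 71.4 with CWP232228 (log2 fold change -0.87, SE 0.07, adjusted p = 7e-05). NUSAP1, a spindle protein, had 64.6 and 69.2 CPM with YB-0158, against 118 and 128 with CWP232228 (log2 fold change -0.87, SE 0.07, adjusted p = 8.2e-05). DMSO libraries had 72.5 and 62.7 CPM of BUB1 and 151 and 141 CPM of NUSAP1, near or above CWP232228. CENPF, a kinetochore protein, had 137 and 141 CPM with YB-0158, against 213 and 225 with CWP232228 (log2 fold change -0.65, SE 0.05, adjusted p = 9e-05). In DMSO, CENPF was at 139 and 119 CPM. MKI67, the marker of cycling cells, had 283 and 262 CPM with YB-0158, against 426 and 421 with CWP232228 (log2 fold change -0.63, SE 0.06, adjusted p = 2e-04). In DMSO, MKI67 was at 283 and 247 CPM. For CENPF and MKI67 it was therefore CWP232228 that stood above the vehicle, and YB-0158 and ICG-001 that lay near it. SPC25 had 5.73 and 6.33 CPM with YB-0158, against 13.6 and 14.5 with CWP232228 (log2 fold change -1.22). TTK had 12.1 and 15.1 CPM with YB-0158, against 30.1 and 29.8 with CWP232228 (log2 fold change -1.14). BIRC5 (survivin), which serves in cytokinesis and as an inhibitor of apoptosis, had 45.5 and 50.4 CPM with YB-0158, against 72 and 72.4 with CWP232228 (log2 fold change -0.59, SE 0.07, adjusted p = 0.00045). In DMSO, BIRC5 was at 106 and 109 CPM. The phosphatase CDC25B, at -0.05 (adjusted p = 0.55), was the member that did not pass.

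Set beside the vehicle, both YB-0158 libraries lay below both DMSO libraries in 36 of 45 replication genes and above them in 0. The median ratio of group means was 0.61. For CWP232228 the same counts were 19 below and 19 above, with a median ratio of 0.99, and for ICG-001 they were 35 and 2, with 0.70. In the mitotic list YB-0158 was below in 37 of 45 and above in 0 (median ratio 0.63), CWP232228 below in 21 and above in 18 (0.95), and ICG-001 below in 32 and above in 0 (0.61). These ratios share the DMSO libraries, and no test was made against them. The same counts were not made over all tested genes, so how unusual they are was not tested. Other lists also lay mostly on 1 side of DMSO. With YB-0158, 56 of 60 ribosomal protein genes lay below and 0 above, and of 30 stress targets 2 lay below and 27 above.

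**Figure D3:**
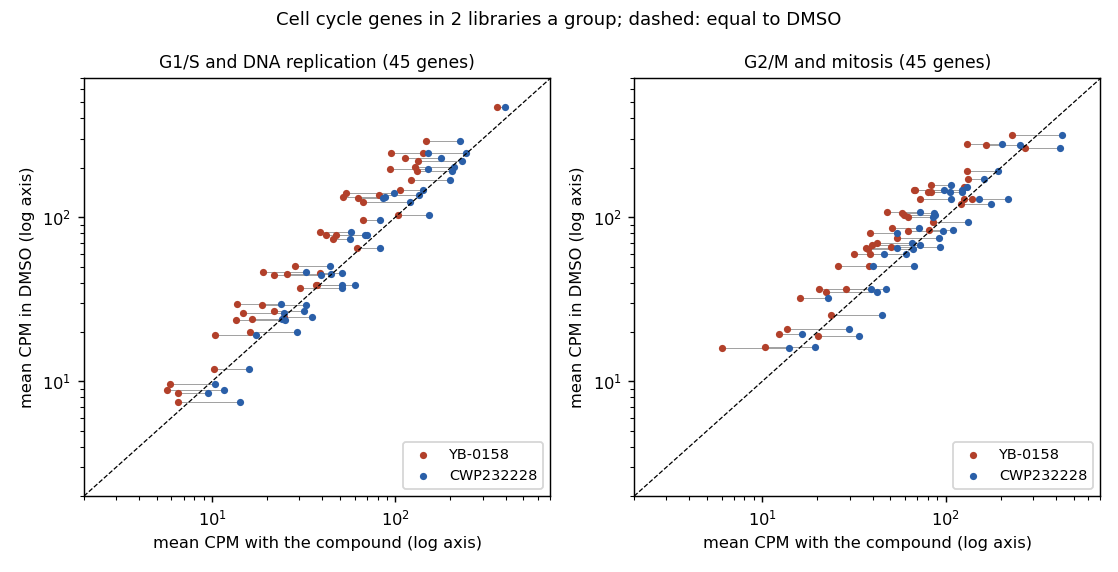
Mean level of 45 G1/S and replication genes (left) and 45 G2/M genes (right) with YB-0158 (red) or CWP232228 (blue), in CPM on a log axis, against the mean level in DMSO on a log axis. Thin lines join the 2 values of a gene and the dashed line marks equality with DMSO. The red points lie left of the blue ones, mostly above the dashed line, with median ratios to DMSO of 0.61 and 0.63 for YB-0158, while the blue points lie on both sides of it, with medians of 0.99 and 0.95.

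The list of cell cycle inhibitors and partners held 3 higher and 4 lower of 16 tested genes (43.8%), where 20.5% of all tested genes were called. CDKN2B (p15), an inhibitor of CDK4 and CDK6, had 16.4 and 16.9 CPM with YB-0158, against 10.3 and 8.72 with CWP232228 (log2 fold change 0.81, SE 0.10, adjusted p = 0.00055). BTG2, an antiproliferative gene, went the other way with 23 and 22.7 CPM with YB-0158, against 40.7 and 37.6 with CWP232228 (log2 fold change -0.77, SE 0.07, adjusted p = 2e-04). The kinase gene CDK2 had 66.8 and 67.1 CPM with YB-0158, against 93.1 and 89.8 with CWP232228 (log2 fold change -0.45). CDKN1A, the p21 inhibitor, differed by 0.05 (adjusted p = 0.74). Of 12 tested histone genes, which are close copies and whose mRNAs mostly lack a poly(A) tail, 1 was higher and 1 lower, or 2 and 2 without CWP232228 replicate 1. The lower one, H3C10, had 0.938 and 0.792 CPM with YB-0158, against 1.46 and 2.15 with CWP232228 (log2 fold change -1.05), a call that was lost without YB-0158 replicate 1, without YB-0158 replicate 2 and without CWP232228 replicate 2 (adjusted p = 0.072, 0.094 and 0.17). H2AC6 had 11.9 and 11.1 CPM with YB-0158, against 13.3 and 14.7 with CWP232228 and did not pass (adjusted p = 0.08). Of the tested histone genes 16.7% were called, under the 20.5% of all tested genes.

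Many mitotic promoters carry a CHR element, written TTTGAA, that is bound by the repressive DREAM complex and by its activating counterparts. Stretches of 3 lower genes are printed with the element on either strand in capitals, from RefSeq windows (GRCh38.p14), 5′ to 3′ on the strand of the gene. SPC25 lies at chr2:168890581-168890680 on the minus strand. HMMR, a spindle-associated hyaluronan receptor (-0.94 on the log2 scale), lies at chr5:163460532-163460631 on the plus strand. DLGAP5, a spindle protein (-0.93), lies at chr14:55191640-55191739 on the minus strand.
SPC25: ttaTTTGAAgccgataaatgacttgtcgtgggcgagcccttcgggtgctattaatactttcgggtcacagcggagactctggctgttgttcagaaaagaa
HMMR: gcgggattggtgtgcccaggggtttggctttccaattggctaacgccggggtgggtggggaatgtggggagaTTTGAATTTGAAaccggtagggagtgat
DLGAP5: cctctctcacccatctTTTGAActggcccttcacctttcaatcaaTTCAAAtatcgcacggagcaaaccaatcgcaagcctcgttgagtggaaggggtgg
HMMR and DLGAP5 held the element at 2 places each in these stretches and SPC25 at 1. TTTGAA was found in 27 of 38 mitotic genes with a window (71.1%) and in 1 of 40 replication genes (2.5%). It was found in 93 of 1263 genes called higher (7.36%), in 253 of 1378 called lower (18.4%) and in 1114 of 11355 tested genes (9.81%). The E2F site TTCCCGC showed the reverse division between the lists, with 18 of 40 replication genes (45%) and 5 of 38 mitotic genes (13.2%). It was found in 1127 of 11355 tested genes (9.93%), 90 of 1263 called higher (7.13%) and 228 of 1378 called lower (16.5%). CCAAT, searched separately and overlapping neither by its letters, was found in 29 of 38 mitotic genes (76.3%), in 21 of 40 replication genes (52.5%) and in 4156 of 11355 tested genes (36.6%). All motifs were read on both strands.

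**Figure D4:**
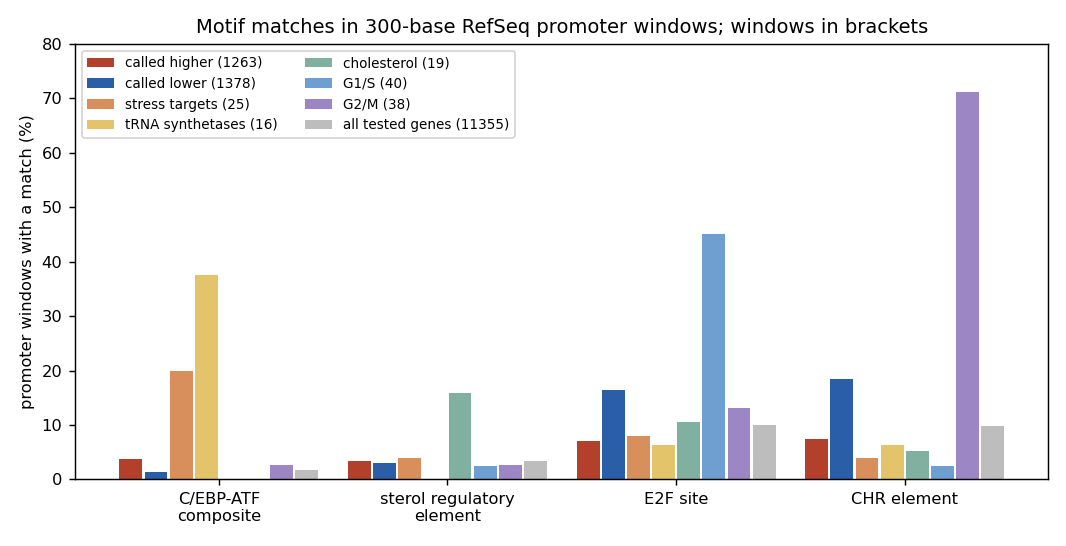
Share of 300-base promoter windows with at least 1 match of 4 motifs on either strand, in percent from 0, for genes called higher and lower with YB-0158, for 5 gene lists and for all tested genes. The number of windows is in brackets and a missing bar is 0%. The tallest bars are the CHR element in the G2/M list (71.1%), the E2F site in the G1/S list (45%) and the C/EBP-ATF element in the tRNA synthetases (37.5%), against 9.81%, 9.93% and 1.79% of all tested genes.

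Sterol and fatty acid synthesis genes were also lower with YB-0158. These enzymes are controlled together by the SREBP transcription factors, which are released from the endoplasmic reticulum when sterols are scarce. Of 26 tested genes of cholesterol synthesis and uptake, 20 were lower and 0 higher (median -0.38), where 10.5% of all tested genes were lower. Of 14 fatty acid genes, 9 were lower and 0 higher (median -0.33). The cholesterol count was 12 without YB-0158 replicate 1, and 11 with all 8 libraries or with effective-length offsets. The fatty acid count was 4 and 2 in those last settings.

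INSIG1, the sterol-sensing anchor of SREBP, had 29.1 and 33.5 CPM with YB-0158, against 56 and 63.9 with CWP232228 (log2 fold change -0.94, SE 0.09, adjusted p = 0.00022). In DMSO, INSIG1 was at 110.2 and 101 CPM. MSMO1, a methylsterol demethylating enzyme, had 12.5 and 14.2 CPM with YB-0158, against 26.2 and 29.7 with CWP232228 (log2 fold change -1.07, SE 0.12, adjusted p = 0.00037). In DMSO, MSMO1 was at 33 and 27.9 CPM. SQLE, squalene epoxidase, had 197 and 213 CPM with YB-0158, against 289.5 and 292 with CWP232228 (log2 fold change -0.50, SE 0.06, adjusted p = 0.00043). In DMSO, SQLE was at 349.9 and 299 CPM. For INSIG1 both compounds lay below the vehicle and YB-0158 further, while for MSMO1 and SQLE the CWP232228 libraries lay at or just under the DMSO range. The synthase HMGCS1, chosen after its values were seen, was at -0.56 on the log2 scale (adjusted p = 0.0017). Members that did not pass included LSS, SREBF2, PMVK and SCAP.

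Among fatty acid genes, SCD, the stearoyl-CoA desaturase, had 784 and 766 CPM with YB-0158, against 1270.2 and 1251 with CWP232228 (log2 fold change -0.70, SE 0.05, adjusted p = 8.2e-05). In DMSO, SCD was at 1929.8 and 1677 CPM. SCD was picked as a member of smallest p, so the distance between its groups is no further result. ELOVL6, an elongase, had 36.6 and 39 CPM with YB-0158, against 53.8 and 60.3 with CWP232228 (log2 fold change -0.59). ACSL1, an acyl-CoA synthetase, had 30.5 and 31.1 CPM with YB-0158, against 42.1 and 46.7 with CWP232228 (log2 fold change -0.52). With effective-length offsets the adjusted p of ELOVL6 was 0.67 and that of ACSL1 0.60.

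The sterol regulatory element was searched as TCACNCCA and is shown for 2 lower genes from RefSeq windows (GRCh38.p14), 5′ to 3′, with the element in capitals. MSMO1 lies at chr4:165327468-165327567 on the plus strand. MVK, mevalonate kinase (-0.34 on the log2 scale), lies at chr12:109573554-109573653 on the plus strand.
MSMO1: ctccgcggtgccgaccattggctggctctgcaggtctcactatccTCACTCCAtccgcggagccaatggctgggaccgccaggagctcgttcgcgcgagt
MVK: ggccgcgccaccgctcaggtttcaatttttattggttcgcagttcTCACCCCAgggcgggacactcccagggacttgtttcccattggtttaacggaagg
It was found in 3 of 19 cholesterol genes with a window (15.8%), in 1 of 13 fatty acid genes (7.69%) and in 385 of 11355 tested genes (3.39%). It was also found in 42 of 1263 genes called higher (3.33%) and 41 of 1378 called lower (2.98%).

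**Figure D5:**
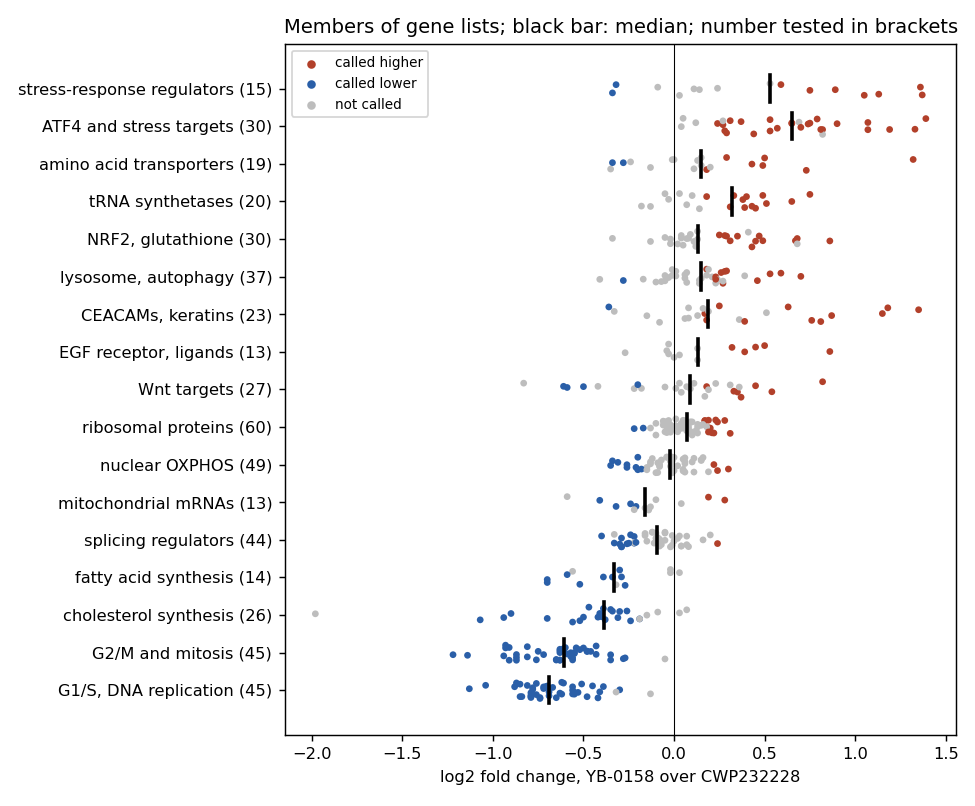
Log2 fold change (YB-0158 over CWP232228) of each tested member of 17 gene lists, with the median as a black bar and the number tested in brackets. Red points were called higher and blue points lower; the 2 cell cycle lists have 43 and 44 blue points and no red one, and the stress targets have 24 red points and no blue one.

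The Wnt pathway is given next, as the one these compounds were developed against. Of 27 tested Wnt/beta-catenin target genes, 7 were higher and 4 lower (median 0.09), where 10.0% of all tested genes were higher and 10.5% lower. Of 30 genes of the pathway's machinery, 8 were higher and 1 lower (median 0.11). Without YB-0158 replicate 1 or without CWP232228 replicate 2 the target count was 4 higher and 3 lower, and the machinery count was 2 and 3 higher and 0 lower. AXIN2, a negative-feedback target, had 112 and 113 CPM with YB-0158, against 91.5 and 86.4 with CWP232228 (log2 fold change 0.35, SE 0.05, adjusted p = 0.0025). In DMSO, AXIN2 was at 65.4 and 58 CPM. LGR5, the R-spondin receptor and stem cell marker, had 5.91 and 5.47 CPM with YB-0158, against 9.1 and 8.4 with CWP232228 (log2 fold change -0.61, SE 0.12, adjusted p = 0.0058). In DMSO, LGR5 was at 9.1 and 7.93 CPM. These 2 targets differed in opposite directions. CLDN1 had 83.7 and 89.8 CPM with YB-0158, against 60.2 and 59.7 with CWP232228 (log2 fold change 0.54). VEGFA, the angiogenic factor, had 282 and 264 CPM with YB-0158, against 161 and 149 with CWP232228 (log2 fold change 0.82). MYC had 194 and 194 CPM with YB-0158, against 203 and 176 with CWP232228, with overlapping libraries (log2 fold change 0.04, SE 0.08, adjusted p = 0.78). Its summed count was 0.80 times the authors' deposited mean.

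The genes of the proteins at which these compounds are directed differed by at most 0.39 on the log2 scale. KHDRBS1 had 218 and 230 CPM with YB-0158, against 231 and 245 with CWP232228, and although its libraries just missed overlapping, the difference did not pass (log2 fold change -0.08, SE 0.06, adjusted p = 0.34; 95% interval -0.21 to 0.04). CTNNB1, beta-catenin, had 257 and 260.5 CPM with YB-0158, against 242 and 241 with CWP232228 (log2 fold change 0.11, SE 0.05, adjusted p = 0.16; 95% interval 0.00 to 0.22). CREBBP had 128 and 117 CPM with YB-0158, against 97.7 and 90.7 with CWP232228 (log2 fold change 0.39, SE 0.08, adjusted p = 0.0068). In DMSO, CREBBP was at 76.1 and 62.3 CPM. Its adjusted p was 0.052 both without YB-0158 replicate 1 and without CWP232228 replicate 2. Its paralog EP300 had 76.5 and 74.3 CPM with YB-0158, against 79 and 69.4 with CWP232228, with overlapping libraries (log2 fold change 0.03, SE 0.07, adjusted p = 0.83; 95% interval -0.13 to 0.19). Its summed count was 0.70 times the authors' deposited mean. AXIN1, a scaffold of the beta-catenin destruction complex, had 115 and 109 CPM with YB-0158, against 87.5 and 77.1 with CWP232228 (log2 fold change 0.45). TBL1X, a corepressor subunit that also binds beta-catenin, had 74.6 and 74.7 CPM with YB-0158, against 62.4 and 56.1 with CWP232228 (log2 fold change 0.34). The lower member of the machinery was the acetyltransferase gene KAT2B, at -0.44, and the machinery list had 0 lower members without any 1 of the 4 libraries.

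Among 22 stem cell markers 2 were higher and 6 lower (median -0.06), where 10.0% of all tested genes were higher and 10.5% lower. KLF4, a transcription factor of differentiating epithelium as well as of pluripotent cells, had 33.3 and 32.8 CPM with YB-0158, against 18.7 and 16.7 with CWP232228 (log2 fold change 0.91). ALDH1A3, a retinaldehyde dehydrogenase, had 27.6 and 31.9 CPM with YB-0158, against 19.4 and 20.7 with CWP232228 (log2 fold change 0.57). The efflux pump ABCG2 had 42.2 and 43.7 CPM with YB-0158, against 57.6 and 62.1 with CWP232228 (log2 fold change -0.47). CD44, a hyaluronan receptor, had 680.4 and 645 CPM with YB-0158, against 769 and 757 with CWP232228 (log2 fold change -0.20, SE 0.05, adjusted p = 0.025), but leaving out any of the 4 libraries ended this call (adjusted p between 0.058 and 0.18). PROM1 (CD133) had 174 and 180.5 CPM with YB-0158, against 196 and 182 with CWP232228 and its libraries did not overlap, yet the difference did not pass (log2 fold change -0.09, SE 0.07, adjusted p = 0.39).

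Keratins and adhesion genes of the CEACAM family were among the higher epithelial genes. Of 23 tested members of that list, 11 were higher and 1 lower (median 0.19), where 10.0% of all tested genes were higher and 10.5% lower. Of 13 markers of colorectal epithelium, which also include keratins and CEACAMs and so are not independent of that list, 8 were higher and 1 lower (median 0.18). Their summed level was 13805 and 13926 CPM with YB-0158 and 12300.1 and 11802 CPM with CWP232228. In DMSO the sum was 15570 and 17378 CPM, above both compounds. The second count was 4 higher and 0 or 1 lower without YB-0158 replicate 1, without YB-0158 replicate 2 or without CWP232228 replicate 2. KRT17, a keratin of wounded and basal epithelium, had 36.5 and 39.1 CPM with YB-0158, against 15.6 and 14.3 with CWP232228 (log2 fold change 1.35, SE 0.10, adjusted p = 6.2e-05). In DMSO, KRT17 was at 13.7 and 16.6 CPM. SCEL, a component of cornified envelopes, had 57.3 and 61.7 CPM with YB-0158, against 26.8 and 27 with CWP232228 (log2 fold change 1.15). KRT80 had 294 and 296 CPM with YB-0158, against 176 and 161 with CWP232228 (log2 fold change 0.81). KRT20, a keratin of differentiated colon cells, had 432 and 426 CPM with YB-0158, against 284 and 283 with CWP232228 (log2 fold change 0.60). In DMSO, KRT20 was at 246 and 292 CPM. CEACAM6 had 101 and 118 CPM with YB-0158, against 63.7 and 56.2 with CWP232228 (log2 fold change 0.87). CEACAM5 had 27 and 29.9 CPM with YB-0158, against 18.3 and 15.2 with CWP232228 (log2 fold change 0.76). The 2 genes are close copies, so their shares of the reads are uncertain. DMSO libraries had 11.2 and 10 CPM of CEACAM6, well under both compounds.

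Of 33 tested genes of other differentiation markers, 4 were higher and 6 lower (median 0.01), with 2 higher without YB-0158 replicate 1 or CWP232228 replicate 2. MUC13, a membrane mucin, had 111 and 116 CPM with YB-0158, against 174 and 164 with CWP232228 (log2 fold change -0.57). CA2, carbonic anhydrase II, had 17.3 and 17.6 CPM with YB-0158, against 28.3 and 27.2 with CWP232228 (log2 fold change -0.66). Of 20 tight junction genes, 3 were higher and 1 lower, a share near the 20.5% called among all tested genes. The higher count was 1 without YB-0158 replicate 1, YB-0158 replicate 2 or CWP232228 replicate 2, and 9 with the replicate block. CLDN2, a claudin that forms cation pores, had 87.5 and 87.9 CPM with YB-0158, against 175 and 168 with CWP232228 (log2 fold change -0.96, SE 0.05, adjusted p = 2.8e-05). In DMSO, CLDN2 was at 176 and 201 CPM, so CWP232228 stayed near the vehicle while YB-0158 lay well under it (95% interval of the log2 fold change -1.08 to -0.84). TJP1 (ZO-1) had 275 and 278 CPM with YB-0158, against 239 and 228 with CWP232228 (log2 fold change 0.25), a call that was lost without either YB-0158 library or CWP232228 replicate 2.

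Of 15 genes of epithelial-mesenchymal transition and invasion, 4 were higher and 2 lower (median 0.18), where 10.0% of all tested genes were higher and 10.5% lower. The lower count was 1 without YB-0158 replicate 1, and 0 without YB-0158 replicate 2, without either CWP232228 library or with all 8 libraries. LAMB3 and LAMA3 encode chains of a laminin, the anchor of epithelial cells to basement membrane. LAMB3 had 264 and 259.8 CPM with YB-0158, against 158.4 and 134 with CWP232228 (log2 fold change 0.84). LAMA3 had 76.1 and 73.5 CPM with YB-0158, against 50.5 and 47.9 with CWP232228 (log2 fold change 0.61). Both were picked as members of smallest p, so the lack of overlap between their groups is no further result. The matrix protein TGFBI (-0.21) was among the lower members, which depended on the libraries as given.

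Of 13 tested genes of the EGF receptor family and its ligands, 5 were higher and 0 lower with YB-0158 (median 0.13), where 10.0% of all tested genes were higher. The other 8 did not pass, and the lowest value of the list was -0.27. HBEGF had 36.4 and 35.2 CPM with YB-0158, against 20.3 and 19.3 with CWP232228 (log2 fold change 0.86, SE 0.07, adjusted p = 0.00011). TGFA had 121 and 125 CPM with YB-0158, against 87.8 and 92.1 with CWP232228 (log2 fold change 0.45). The feedback inhibitor ERRFI1 had 202 and 198 CPM with YB-0158, against 141 and 143 with CWP232228 (log2 fold change 0.50). The other 2 higher members were the ligands AREG (0.39) and EREG (0.32); EGFR itself differed by 0.13 (adjusted p = 0.11). Without YB-0158 replicate 2 the count was 3. Of 27 targets of ERK and AP-1, 10 were higher and 3 lower (median 0.13). The count of higher members was 4 without YB-0158 replicate 1 and 5 without CWP232228 replicate 2, and that of lower members 1 without YB-0158 replicate 2. The phosphatase DUSP4 had 49.7 and 48.7 CPM with YB-0158, against 34.2 and 32.8 with CWP232228 (log2 fold change 0.56). DUSP5, of the same family, had 15.3 and 16.6 CPM with YB-0158, against 8.97 and 10.3 with CWP232228 (log2 fold change 0.73). The AP-1 subunit FOSL2 had 136 and 133 CPM with YB-0158, against 101 and 92.5 with CWP232228 (log2 fold change 0.48). Of 18 targets of YAP and TEAD, 6 were higher and 0 lower (median 0.13), or 3 without YB-0158 replicate 1 and 2 without CWP232228 replicate 2. AJUBA, a LIM-domain adaptor, had 108 and 107 CPM with YB-0158, against 73 and 69.5 with CWP232228 (log2 fold change 0.60). AMOTL2, an angiomotin, had 120.2 and 119.5 CPM with YB-0158, against 92.6 and 87.2 with CWP232228 (log2 fold change 0.42). CCN1 had 9.35 and 9.02 CPM with YB-0158, against 5.27 and 4.59 with CWP232228 (log2 fold change 0.90), with a summed count 0.59 times the authors' deposited mean. Its adjusted p was 0.075 without CWP232228 replicate 2.

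Of 20 NF-kappaB genes, 4 were higher and 1 lower (median 0.24), where 20.5% of all tested genes were called in either direction. The higher count was 2 without either CWP232228 library. Of 32 interferon and antigen presentation genes, 8 were higher and 4 lower (median 0.06). The interferon and antigen count was 1 higher and 3 lower without YB-0158 replicate 1 and without CWP232228 replicate 2, and 3 higher and 3 lower without YB-0158 replicate 2. RELB, a subunit of the non-canonical pathway, had 17.5 and 18.4 CPM with YB-0158, against 10.1 and 9.7 with CWP232228 (log2 fold change 0.86). The transcription factor IRF1 had 61.2 and 59.1 CPM with YB-0158, against 42.9 and 41.6 with CWP232228 (log2 fold change 0.52). The subunit REL had 21.2 and 21.1 CPM with YB-0158, against 27.2 and 27 with CWP232228 (log2 fold change -0.35; adjusted p = 0.062 without YB-0158 replicate 1). Within the second list the interferon-induced gene OAS3 was lower, with 66 and 69.8 CPM with YB-0158, against 102 and 92.9 with CWP232228 (log2 fold change -0.52). So did IFI44, with 4.33 and 4.09 CPM with YB-0158, against 7.31 and 7.98 with CWP232228 (log2 fold change -0.85). The higher members included the antigen genes HLA-B and HLA-C, the peptide loading genes TAP2 and TAPBP, and ISG15, ISG20 and IRF7. The 4 lower ones were IFI44, IFIT1, OASL and OAS3.

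Oxidative stress genes under NRF2 were higher in 12 and lower in 0 of 30 tested (median 0.13), and this count was at least 7 in each of the 14 other settings. The ferritin heavy chain FTH1 had 5794 and 5846 CPM with YB-0158, against 3635 and 3644 with CWP232228 (log2 fold change 0.68, SE 0.05, adjusted p = 4.9e-05). In DMSO, FTH1 was at 3239.5 and 4058 CPM. The aldo-keto reductase AKR1C1 had 16.1 and 16.7 CPM with YB-0158, against 9.2 and 8.92 with CWP232228 (log2 fold change 0.86). AKR1C3 had 87.5 and 92.7 CPM with YB-0158, against 63.2 and 65.2 with CWP232228 (log2 fold change 0.49). These 2 belong to a family of close copies, so their shares of the reads are uncertain. The classic targets NQO1 and HMOX1 differed by -0.02 (adjusted p = 0.81) and 0.08 (adjusted p = 0.66). Lysosome and autophagy genes were higher in 11 and lower in 1 of 37 (median 0.15). Beside both lists, 10.0% of all tested genes were higher and 10.5% lower. SQSTM1 (p62), the cargo receptor, had 744 and 747 CPM with YB-0158, against 472 and 447 with CWP232228 (log2 fold change 0.70). MAP1LC3B, the autophagosome protein LC3, had 88.6 and 96.8 CPM with YB-0158, against 61.1 and 62.5 with CWP232228 (log2 fold change 0.59). The initiating kinase ULK1 had 88.5 and 82 CPM with YB-0158, against 61.9 and 56.9 with CWP232228 (log2 fold change 0.53). The higher members numbered 4 without YB-0158 replicate 1 or without CWP232228 replicate 2, and 7 without YB-0158 replicate 2. The lower call was absent without those 3 libraries in turn.

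In the unfolded protein response, 8 of 28 genes were higher and 3 lower (median 0.09), where 10.0% of all tested genes were higher and 10.5% lower. ERN1 (IRE1), the sensor of unfolded proteins, had 62.7 and 62.9 CPM with YB-0158, against 30.5 and 29.4 with CWP232228 (log2 fold change 1.07, SE 0.06, adjusted p = 2.8e-05). In DMSO, ERN1 was at 17.8 and 12.7 CPM, and with effective-length offsets its adjusted p was 0.13. SEL1L, of the degradation machinery, had 99.9 and 106 CPM with YB-0158, against 64.7 and 70.6 with CWP232228 (log2 fold change 0.61). The chaperone HSPA5 differed by 0.13 (adjusted p = 0.085), and the 3 lower members were CALR, CRELD2 and PDIA3, of which 1 was called without YB-0158 replicate 1. Of 24 heat shock genes, 4 were higher and 1 lower (median 0.02), a share near the 20.5% called among all tested genes. The higher count was 1 without YB-0158 replicate 1, YB-0158 replicate 2 or CWP232228 replicate 2, and the lower count was 0 without YB-0158 replicate 1 or either CWP232228 library. The cochaperone AHSA1 had 126 and 122 CPM with YB-0158, against 102 and 103 with CWP232228 (log2 fold change 0.27). HSPA1A, which shares reads with its copy HSPA1B, had 376 and 369 CPM with YB-0158, against 323 and 313 with CWP232228 (log2 fold change 0.23). HSF2 had 7.47 and 9.73 CPM with YB-0158, against 11.6 and 12.3 with CWP232228 (log2 fold change -0.48). Without YB-0158 replicate 1 none of these 3 calls held (adjusted p = 0.057, 0.13 and 0.20).

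Apoptosis genes were called in both directions. Of 28 apoptosis genes, 7 were higher and 4 lower (median 0.08), where 10.0% of all tested genes were higher and 10.5% lower. Without YB-0158 replicate 1 the counts were 4 and 3, and without CWP232228 replicate 2 they were 3 and 4. BBC3 (PUMA), a killer BH3 protein, had 33.4 and 32.9 CPM with YB-0158, against 20.1 and 17.8 with CWP232228 (log2 fold change 0.81, SE 0.08, adjusted p = 0.00027). In DMSO, BBC3 was at 23.4 and 25.6 CPM. The death receptor TNFRSF10B (DR5) had 68.7 and 70 CPM with YB-0158, against 52.7 and 52.6 with CWP232228 (log2 fold change 0.40). The death receptor FAS was at -0.88 on the log2 scale.

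Genes of energy metabolism were called in both directions, as were genes in general. Of 49 nuclear genes of oxidative phosphorylation, 3 were higher and 9 lower (median -0.02), where 10.0% of all tested genes were higher and 10.5% lower. Leaving out any of the 4 libraries reduced the lower count to between 2 and 4 and the higher count to 0 or 1. ATP5MC3 had 101 and 99.4 CPM with YB-0158, against 128 and 128 with CWP232228 (log2 fold change -0.35). ATP5MC1 had 46.1 and 44.7 CPM with YB-0158, against 56.3 and 58.8 with CWP232228 (log2 fold change -0.34). Both encode the membrane ring of ATP synthase. The succinate dehydrogenase subunit SDHA had 256 and 250.6 CPM with YB-0158, against 317 and 291 with CWP232228 (log2 fold change -0.26; adjusted p between 0.053 and 0.072 without either YB-0158 library or CWP232228 replicate 1). Of the 13 mRNAs encoded in mitochondrial DNA, 2 were higher and 4 lower (median -0.16). MT-ND1 had 2907 and 2904 CPM with YB-0158, against 2473 and 2335 with CWP232228 (log2 fold change 0.28). MT-ND4L had 395 and 447 CPM with YB-0158, against 583 and 538 with CWP232228 (log2 fold change -0.41). MT-CO1 had 5075 and 5109 CPM with YB-0158, against 6026 and 5753 with CWP232228 (log2 fold change -0.21), a call that was lost without either YB-0158 library or CWP232228 replicate 1. The lower members numbered 1 without YB-0158 replicate 1, 2 without YB-0158 replicate 2, 2 without CWP232228 replicate 1 and 7 without CWP232228 replicate 2, and 2 with GC and length offsets. The higher ones numbered 1 without either YB-0158 library or CWP232228 replicate 2. Of 30 genes of glycolysis and hypoxia, 2 were higher and 8 lower (median -0.10), or 5 lower without YB-0158 replicate 1 and without CWP232228 replicate 1. Carbonic anhydrase CA9 had 30.7 and 28.1 CPM with YB-0158, against 60.9 and 53.1 with CWP232228 (log2 fold change -0.95). In DMSO, CA9 was at 136 and 208 CPM. Lactate dehydrogenase LDHA had 477 and 497 CPM with YB-0158, against 696 and 669.6 with CWP232228 (log2 fold change -0.48). VEGFA, also on this list, was higher as given above.

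Ribosomal protein genes, which are abundant and measured precisely, were higher in 13 and lower in 2 of 60 (median 0.07). They differed by at most 0.31 on the log2 scale. Beside this list, 10.0% of all tested genes were higher and 10.5% lower. The split of the ribosomal protein genes depended on the setting. It was 2 and 0 without YB-0158 replicate 1, between 6 and 7 higher and 0 or 1 lower without any other library of the 4, and 12 and 9 with GC and length offsets. The stalk protein RPLP1 had 1796 and 1705 CPM with YB-0158, against 1441 and 1394 with CWP232228 (log2 fold change 0.31). Its partner RPLP2 had 1082 and 1042 CPM with YB-0158, against 886 and 874 with CWP232228 (log2 fold change 0.28). RPSA had 1093 and 1084 CPM with YB-0158, against 935 and 909 with CWP232228 (log2 fold change 0.24), with an adjusted p of 0.056 without YB-0158 replicate 1. Of 32 ribosome biogenesis genes, 3 were higher and 4 lower (median 0.03), a share near the 20.5% called among all tested genes. These counts were 2 and 0 without YB-0158 replicate 1, 1 and 2 without YB-0158 replicate 2, and 0 and 2 without CWP232228 replicate 2. RRP12 had 74.2 and 79.2 CPM with YB-0158, against 64 and 59.9 with CWP232228 (log2 fold change 0.31). RRP9 had 54 and 54.2 CPM with YB-0158, against 44.8 and 40.5 with CWP232228 (log2 fold change 0.35). NOLC1 had 222 and 224 CPM with YB-0158, against 261 and 266 with CWP232228 (log2 fold change -0.24). The call of RRP12 was lost without YB-0158 replicate 2 or CWP232228 replicate 2, that of RRP9 without CWP232228 replicate 2 and that of NOLC1 without either YB-0158 library. Of 31 proteasome genes, 1 was higher and 2 lower (median -0.02), or 9.68%, under the 20.5% called among all tested genes. Each call was lost without at least 2 of the 4 libraries in turn. The counts were 0 and 0 without YB-0158 replicate 1, 1 and 1 without CWP232228 replicate 1, and 0 and 1 without CWP232228 replicate 2. PSMB6 had 84.2 and 82.3 CPM with YB-0158, against 71.8 and 67.8 with CWP232228 (log2 fold change 0.26). PSMC3 had 103 and 107 CPM with YB-0158, against 126 and 118 with CWP232228 (log2 fold change -0.21). PSMA4 had 146 and 164 CPM with YB-0158, against 190.1 and 184 with CWP232228 (log2 fold change -0.27).

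Among all tested genes 10.0% were higher and 10.5% lower. Of 44 splicing regulators, 1 was higher and 12 lower (median -0.10). The lower ones were SR and SR-like proteins and hnRNPs, RNA-binding proteins that promote or restrain the inclusion of exons, and differed by at most -0.40 on the log2 scale. SRSF3 had 195 and 206 CPM with YB-0158, against 248 and 284 with CWP232228 (log2 fold change -0.40, SE 0.07, adjusted p = 0.0052). HNRNPD had 223 and 234 CPM with YB-0158, against 276 and 284 with CWP232228 (log2 fold change -0.29). HNRNPR had 190.2 and 194 CPM with YB-0158, against 239 and 233 with CWP232228 (log2 fold change -0.29). Without YB-0158 replicate 1 the adjusted p of HNRNPD was 0.055 and that of HNRNPR 0.059. The higher call was lost without any 1 of the 4 libraries. The lower members numbered 2 without YB-0158 replicate 1 and 3 without CWP232228 replicate 2, and with GC and length offsets 7 were higher and 17 lower.

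Of 19 genes of the MYC and MAX network, 5 were higher and 3 lower (median 0.04), or 3 and 3 without CWP232228 replicate 2; the higher ones included TXNIP and ARRDC4 above. Of 26 genes of xenobiotic metabolism, 7 were higher and 6 lower (median 0.07), or 3 and 3 without YB-0158 replicate 1 and 4 and 5 without CWP232228 replicate 2. TIPARP, a target of the aryl hydrocarbon receptor, had 99.1 and 109.7 CPM with YB-0158, against 82.2 and 78.2 with CWP232228 (log2 fold change 0.38). The receptor's repressor AHRR had 15.1 and 13.6 CPM with YB-0158, against 7.54 and 8.17 with CWP232228 (log2 fold change 0.88), an uncertain level, since the summed count was 8.6 times the authors' deposited mean. Beside the gene lists of this paragraph, 10.0% of all tested genes were higher and 10.5% lower. Of 16 polyamine and metallothionein genes, 4 were higher and 3 lower (median -0.07). The counts were 3 and 1 without YB-0158 replicate 1, 2 and 2 without YB-0158 replicate 2, and 2 and 1 without CWP232228 replicate 2. The polyamine acetyltransferase SAT1 had 81.2 and 85.7 CPM with YB-0158, against 54 and 57.4 with CWP232228 (log2 fold change 0.59). Spermine oxidase SMOX had 53.5 and 52 CPM with YB-0158, against 36.1 and 31.2 with CWP232228 (log2 fold change 0.65), with a summed count 0.71 times the authors' deposited mean. Spermine synthase SMS had 173 and 176 CPM with YB-0158, against 206 and 212 with CWP232228 (log2 fold change -0.25). Its adjusted p was 0.078 without YB-0158 replicate 1 and 0.052 without CWP232228 replicate 2. SAT1 stood out because ICG-001, at 57.6 and 61.9 CPM, and DMSO, at 56.8 and 62.2 CPM, both lay near CWP232228. Marker lists of fibroblasts (2 tested) and leukocytes (4 tested) held no called gene. Of 2 tested endothelial markers TEK was lower, with 0.521 and 0.511 CPM with YB-0158, against 1.17 and 1.43 with CWP232228 (log2 fold change -1.32). TEK lost its call without YB-0158 replicate 1 and without CWP232228 replicate 2. PECAM1 had 0.886 and 0.792 CPM with YB-0158, against 1.4 and 1.3 with CWP232228 (adjusted p = 0.084).

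Because KHDRBS1 acts in splicing, the division of each gene's reads among its transcripts was also compared, with edgeR's diffSpliceDGE and a Simes p per gene. Of 11530 genes tested, 319 (2.77%) were called and 1311 had an unadjusted p under 0.05. Of the 319, 83 also differed in their total, where 20.5% of all genes in the test of totals did. Among the 319, 145 had a transcript with 0 estimated reads in both libraries of 1 group and at least 5% of the gene in the other group. The same count was not made over all 11530 genes. Salmon divides reads among overlapping transcripts by a model, and a value of 0 can come from that division. The count was 157 without YB-0158 replicate 1.

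HSPA8, a constitutive chaperone, had the smallest p. Its transcript HSPA8-218 took 14.5 and 21.2% of the gene's reads with YB-0158, against 33.7 and 37.9% with CWP232228, and 23.1 and 22.5% with DMSO. HSPA8-212 took 5.51 and 4.38% with YB-0158 and 0% in both CWP232228 libraries (gene adjusted p = 2.1e-20), but the DMSO libraries, at 2.24 and 0%, also differed from each other. The total of the gene differed by 0.06 on the log2 scale (adjusted p = 0.42). RAD50, a DNA repair gene, had 15.3 and 13.5% of its reads on RAD50-203, annotated for nonsense-mediated decay, with YB-0158, against 0% in both CWP232228 libraries. With ICG-001 it had 11.4 and 7.08%, and with DMSO 0% in both libraries.

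HNRNPUL1, an RNA-binding protein gene, had 4.53 and 5.82% on HNRNPUL1-220 with YB-0158 and 0% with CWP232228 and DMSO. NBPF9, of a family of close copies with uncertain reads, had 12.1 and 13.6% on NBPF9-205 with YB-0158 and 0% with CWP232228. NBPF9-205 took 12.6 and 9.31% with ICG-001 and 10.0 and 14.2% with DMSO, so only the CWP232228 libraries were at 0. Its transcript NBPF9-208 took 9.79 and 9.33% with CWP232228 and 0% in every other library. EHMT1, a histone methyltransferase gene, had 50.8 and 61.8% on EHMT1-203 with YB-0158 and 0% in both CWP232228 libraries. Its DMSO libraries had 61.6 and 0%, so replicates of 1 group differed by as much as the 2 treatments. Of 108 called genes with a mean log2 CPM of 4 or more and a share that moved by 10 percentage points or more, 80 held such a 0. In 8 of the 108, no transcript that reached 5% in a library was at 0 in any of the 4 libraries. From these 8, 2 genes were chosen after their values were seen. ARHGEF2, a guanine nucleotide exchange factor gene, had 22.5 and 23.8% on ARHGEF2-206 with YB-0158 and 3.8 and 5.65% with CWP232228, against 0.655 and 0.529% with DMSO (gene adjusted p = 0.013). SKP1, a ubiquitin ligase subunit gene, had 29.3 and 23.5% on SKP1-210 with YB-0158 and 1.72 and 6.31% with CWP232228, against 20.2 and 19.4% with DMSO (gene adjusted p = 0.00011). In ARHGEF2 the order of the groups was DMSO lowest and YB-0158 highest, while in SKP1 the DMSO libraries lay near YB-0158.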

How the data were processed

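The series, titled as a study of reverse-turn peptidomimetics in colorectal cancer cells, measured polyadenylated RNA in 8 HT29 libraries, built per the labels' protocols with a kit that does not mark strand, so overlapping antisense genes cannot be told apart. Groups and replicate numbers came from sample titles. Tools listed in the submitters' processing notes, without role or order, are fastp, Salmon (1.3.0) and DESeq2, with the build GRCh38; the transcriptome release is not given in the sources used here. Per the file headers, each deposited library file holds Salmon's estimated counts, TPM and an effective length for every transcript. The authors' deposited tables of each compound against DMSO hold a mean signal of normalized counts, log2 fold changes, p-values and FPKM; the mean signal was used to check gene totals, and the log2 fold changes, p-values, FPKM and TPM that the authors deposited entered no test.

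Estimated counts of 204677 of 228754 transcripts (89.5%) were matched to GENCODE release 29, summed over 58193 genes and rounded. Unmatched transcripts held between 1.54% and 1.85% of the reads of a library. The authors' tables hold a mean for 16429 of these genes, and 377 sums were under 50% of it. A count of 0 allows up to 3 counts, or 0.0513 to 0.103 CPM, and such floors cover counting error only. Counts were tested in edgeR 4.0.16 (R 4.3.3) with TMM, filterByExpr and the robust quasi-likelihood test in 1 model of the 6 compound libraries with 3 residual degrees of freedom (median 9.6 with the prior), as YB-0158 minus CWP232228, at a Benjamini-Hochberg adjusted p under 0.05. DMSO was left out of the fit because its libraries lay further apart. Intervals are 95% intervals of the fit. The script was tested on simulated data. Promoter windows come from RefSeq (GRCh38.p14) and were found by symbol for 11355 tested genes; of 10803 that could be checked, 9008 (83.4%) had their last 30 bases in a transcript of the gene. Alternatives, in edgeR and DESeq2 1.42.0, are in the closing section.

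The members, the 42 lists (1078 genes, 982 tested) and the rule for named genes were chosen with earlier results of these data known. The rule takes the 15 largest rises and 15 largest falls among called genes with a mean log2 CPM of 2 or more, a regular symbol and groups that do not overlap, the 3 members of smallest p of each list with a called member, and 14 fixed genes. For transcript usage it takes 6 called genes of smallest p with a mean log2 CPM of 4 or more whose share moved by 10 percentage points or more. Genes outside it were chosen after their values were seen. Results for some genes are not reported here.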

Additional observations from a re-analysis of the deposited data

How the results depend on the processing

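The main test called 3382 genes, 1647 higher and 1735 lower with YB-0158. With all 8 libraries in the fit it called 1279 (586 higher, 693 lower; 1275 shared with the main call), and with effective-length offsets 964 (463 and 501; 894 shared). With GC and length offsets 2489 genes were higher. The 2 groups of 2 share replicate numbers that nothing in the labels ties to a pairing; same-numbered YB-0158 and CWP232228 libraries deviated together with r = 0.21 across 10179 genes, and both with those of ICG-001 (r = 0.48 for YB-0158 and 0.33 for CWP232228). A replicate block called 5176 genes (2531 higher, 2645 lower; 3372 shared), and the block with GC and length offsets called 2560 higher. Leaving out each library in turn gave 1443 to 2794 genes, 681 to 1388 higher and 762 to 1406 lower. Size factors, upper-quartile scaling, no low-count filter, DESeq2 and a fit of only the 4 libraries called 3288, 3375, 4295, 3145 and 3293. Transcript usage was called in 319 genes, in 517 with only the 4 libraries, in 183 with all 8, in 215 with the replicate block and in 157 to 332 with each library left out. Of 137 called named genes, 26 lost their call with all 8 libraries, 35 with effective-length offsets, 2 with GC and length offsets, 8 to 19 with a library left out and 0 with the replicate block, which also called 1 more named gene. None of these reversed. Among genes not called, EP300 turned to -0.11 with effective-length offsets and ran from -0.07 to 0.13 with each library left out. MYC turned to -0.01 with GC and length offsets with or without the replicate block and ran from -0.06 to 0.15 with each library left out. PROM1 turned to 0.25 with effective-length offsets. The cause was not tested. The CWP232228 libraries held 30618896 and 31022125 estimated reads, fewer than the YB-0158 libraries, so low genes rest on fewer reads there.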

Other observations

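Values of 5 more genes follow, which were chosen after their values were seen and stand for no list. FABP1, the fatty acid binding protein of enterocytes, had 0.99 and 0.46 CPM with YB-0158, against 3.77 and 2.96 with CWP232228 (log2 fold change -2.16, SE 0.31, adjusted p = 0.0016). Its level was 1.67 and 1.79 CPM with ICG-001 and 11.9 and 28.3 CPM with DMSO. In CPM, the 2 DMSO libraries lay further from each other than the 2 compounds did. REG4, a lectin of secretory cells, had 13.5 and 11.6 CPM with YB-0158, against 23.7 and 22.4 with CWP232228 (log2 fold change -0.87, SE 0.10, adjusted p = 0.00046). In DMSO, REG4 was at 47.5 and 62.6 CPM, so both compounds lay below the vehicle. NR1I2, the pregnane X receptor, had 0.226 and 0.153 CPM with YB-0158, against 0.715 and 0.651 with CWP232228 (log2 fold change -1.80, SE 0.39, adjusted p = 0.011). In DMSO, NR1I2 was at 0.314 and 0.142 CPM, under both CWP232228 libraries. These levels rest on few reads, since 3 counts come to 0.103 and 0.101 CPM in the DMSO libraries, so the order against the vehicle is uncertain. UGT2B7, a glucuronosyltransferase of a family of close copies with uncertain reads, had 0.33 and 0.434 CPM with YB-0158, against 1.11 and 0.944 with CWP232228 (log2 fold change -1.43, SE 0.32, adjusted p = 0.013). In DMSO, UGT2B7 was at 0.906 and 0.924 CPM. KRT7, a keratin of simple ducts that is usually low in colon, had 9.52 and 10 CPM with YB-0158, against 4.97 and 3.65 with CWP232228 (log2 fold change 1.18, SE 0.14, adjusted p = 0.00056). In DMSO, KRT7 was at 4.95 and 6.12 CPM.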
